A study of Mus musculus with 12 samples.

Results

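The enzymes that make purines, pyrimidines, serine and one-carbon units were followed in 3T3-L1 cells, a mouse embryonic fibroblast line that can be induced to become adipocytes. The members were 34 genes chosen by name, and every non-control probe whose transcript accession belongs to one of them was taken. Of these genes, 33 were matched by 51 of the 41174 probes on the array, against 32300 gene names in all, and Rrm2 was not analysed here. The accession L32836 was taken as Ahcy, the name the study gives it. Cells were harvested without hormones at 0 h or 6 h after addition of 0.5 mM isobutylmethylxanthine, 1 µM dexamethasone and 5 µg/ml insulin, and all other conditions of culture were shared except the serum, newborn bovine for growth and fetal bovine in the induction mixture. Lysates made in the presence of cycloheximide were separated on sucrose gradients, and lighter and heavier gradient fractions were pooled as non-polysomal (np) and polysomal (p) RNA. The 4 groups np0, p0, np6 and p6 thus differ in fraction and in hours after induction, and each has 3 biological replicates per the study's methods.

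Each array gave 1 intensity per probe, which was background-subtracted, put on the log2 scale and shifted by spike-ins (control RNAs put into each sample). Intensities had a 75th percentile of 224 to 251 in np0, 417 to 481 in p0, 241 to 267 in np6 and 401 to 528 in p6, and 55.7% to 60.8% of the probes of an array were well above background. All 51 member probes were well above background on all 12 arrays, no spot was saturated, and the number of arrays limits the precision. The 8 fibroblast markers, among them Col1a1 with group means from 14.02 to 17.14, were above background in all groups. Of the markers of mature adipocytes, Fabp4 reached 14.22 to 16.47 and Adipoq 3.72 to 7.05, whereas Lep was not well above background. Of 7 markers of other cell types, 1 was called by M-value, Cdh5 of endothelium, well above background in p6 alone (group means 0.97 to 4.67). The second Cdh5 probe was not called, and it was well above background on 1 np0 and 1 p6 array. Krt8 (4.07 to 4.63) and Myod1 (4.80 to 6.81) were well above background on all arrays, Myog on all arrays of p6, Ptprc on 1 array, and Epcam and Pecam1 on none. The part of other cell types in the results was not tested. In RNA of whole cultures, fewer cells with a transcript and less of it per cell cannot be told apart.

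Purines are built on ribose phosphate up to inosine monophosphate (IMP), from which the guanine branch leads through IMP dehydrogenase and GMP synthetase to GMP. Pyrimidines are assembled as a ring first and end in UTP and CTP, and ribonucleotide reductase and thymidylate synthase provide the building blocks of DNA. Serine made from a glycolytic intermediate feeds the folate cycle, whose one-carbon units go into purines and thymidylate. The methionine cycle makes S-adenosylmethionine, the methyl donor of the cell, and clears its product S-adenosylhomocysteine. Proliferating cells depend on these pathways, and preadipocytes go through clonal expansion after hormonal induction before they differentiate.

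Promoters are shown for Impdh2 and Ahcy, which are set against the other enzymes below, and for Paics and Ppat, purine synthesis genes whose transcripts start 276 bases apart on opposite strands. Each run of 280 bases is the RefSeq sequence of GRCm38.p6 from 250 bases before the transcript start to 30 bases after it, in the direction of the gene. Capitals mark CACGTG, an E-box that reads the same on both strands. The Impdh2 window is chr9:108560186-108560465 on the plus strand, that of Ahcy chr2:155074468-155074747 on the minus strand, that of Paics chr5:76951052-76951331 on the plus strand and that of Ppat chr5:76951549-76951828 on the minus strand.
Impdh2: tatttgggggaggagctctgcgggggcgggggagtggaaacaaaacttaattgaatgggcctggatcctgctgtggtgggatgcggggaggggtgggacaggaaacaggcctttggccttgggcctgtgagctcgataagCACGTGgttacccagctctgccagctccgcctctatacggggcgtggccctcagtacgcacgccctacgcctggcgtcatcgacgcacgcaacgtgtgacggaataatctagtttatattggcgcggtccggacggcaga
Ahcy: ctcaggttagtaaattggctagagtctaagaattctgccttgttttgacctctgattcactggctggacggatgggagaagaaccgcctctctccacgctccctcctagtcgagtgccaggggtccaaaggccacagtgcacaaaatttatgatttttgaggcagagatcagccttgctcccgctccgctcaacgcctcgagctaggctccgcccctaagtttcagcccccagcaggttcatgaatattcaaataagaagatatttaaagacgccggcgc
Paics: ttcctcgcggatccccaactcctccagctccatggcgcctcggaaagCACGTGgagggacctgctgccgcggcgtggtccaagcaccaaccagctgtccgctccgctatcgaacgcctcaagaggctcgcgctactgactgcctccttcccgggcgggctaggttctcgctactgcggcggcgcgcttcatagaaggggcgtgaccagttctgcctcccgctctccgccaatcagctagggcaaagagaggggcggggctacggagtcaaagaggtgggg
Ppat: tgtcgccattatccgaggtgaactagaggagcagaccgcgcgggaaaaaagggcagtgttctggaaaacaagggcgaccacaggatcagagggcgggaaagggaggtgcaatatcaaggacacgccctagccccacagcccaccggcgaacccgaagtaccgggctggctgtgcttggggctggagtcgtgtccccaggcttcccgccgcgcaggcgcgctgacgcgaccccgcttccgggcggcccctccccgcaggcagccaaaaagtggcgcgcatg

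The E-box begins 110 bases before the start of Impdh2 and 203 bases before that of Paics, and these letters are not in the windows of Ahcy and Ppat. Promoters were found for 32 of the 34 genes, with 39 windows of 300 bases. CACGTG stood in 6 of the 39 windows (15.4%), from the 5 genes Atic, Impdh2, Nme1, Paics and Tyms, and in 7.2% of all 32851 windows of that length. A first base C followed by at least 4 pyrimidines, the letters of a terminal oligopyrimidine start, was found in 1 of the 39 windows (2.6%), that of Shmt2, and in 2.5% of all windows. These matches are a description of the letters, and binding was not measured.

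The study asked which mRNAs move between the fractions early in adipogenesis. The comparison was made per probe by the M-value in log2 units, (p6 - np6) - (p0 - np0), so that a positive M-value is a gain of the polysomal over the non-polysomal signal from 0 h to 6 h. A probe was called at an adjusted p below 0.05 and an M-value above 1 or below -1, with limma's moderated statistic and Benjamini-Hochberg adjustment over all probes, and rose or fell here means an adjusted p below 0.05. Where a gene has several probes, the one with the highest mean signal stands for it. By M-value 14 of the 33 enzymes were called higher and 0 lower, beside 12.1% called higher and 1.32% called lower among all probes and 17% and 1.9% among probes that were well above background on all arrays of at least 1 group, as every member was. A further 11 had an adjusted p below 0.05 without a call, 8 of them with a positive M-value. In all, 25 of 33 passed the test in either direction, beside 36% of all probes. That share includes dim probes, and it was not computed for probes well above background alone, so it is no like measure for the members. The median of the 33 enzymes was 0.66, with a range from -0.73 to 2.59, and that of all probes was 0.49. These counts rest on the spike-in scale. Scaling each array to its 75th percentile moves the median M-value of all probes to 0.06. There 4 enzymes were called higher (Ahcy, Gmps, Impdh2 and Phgdh) and 2 lower (Cad and Mthfd1), beside 1545 (3.8%) and 1431 of all probes. Quantile normalization moves the median to 0.00. There 3 were called higher (Ahcy, Gmps and Impdh2) and 3 lower (Cad, Mthfd1 and Rrm1), beside 1268 (3.1%) and 1573 of all probes.

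**Figure D1:**
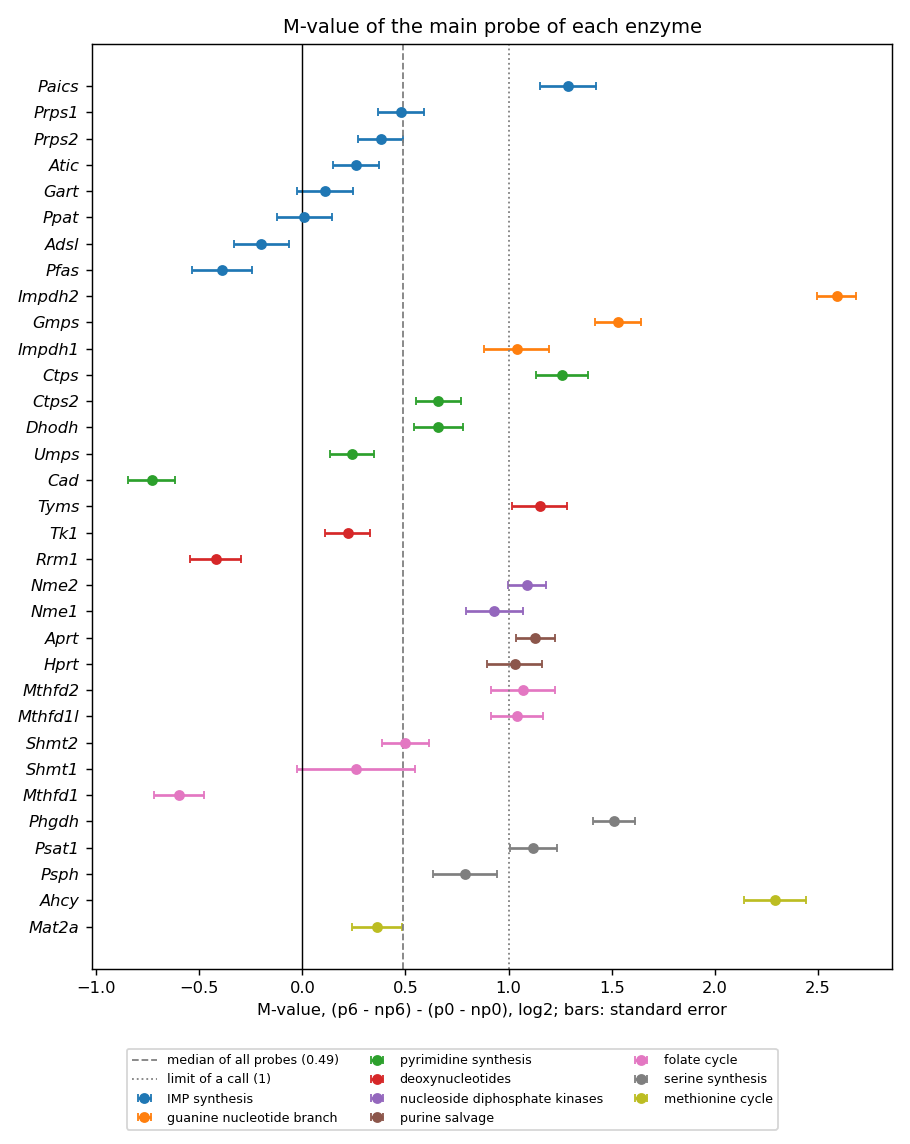
M-value (log2, horizontal axis) of the main probe of each of 33 enzymes, grouped by role, with its standard error from the fit of 12 arrays. The dashed line is the median of all probes (0.49) and the dotted line the limit of a call (1). Impdh2 (2.59) and Ahcy (2.29) lie apart from the other enzymes, which end at 1.53. On the scale of the 75th percentile the 8 enzymes Atic, Gart, Mat2a, Ppat, Prps2, Shmt1, Tk1 and Umps fall below 0.

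Impdh2, one of a pair of IMP dehydrogenases that commit IMP to guanine nucleotides, had the highest M-value of the 33 enzymes. Its log2 signals were 11.69, 11.77 and 11.71 in np0, 12.39, 12.54 and 12.55 in p0, 10.49, 10.55 and 10.55 in np6 and 13.86, 13.91 and 13.92 in p6. The 4 groups did not overlap, with np6 the lowest and p6 the highest. Impdh2 rose in the polysomal fraction by 1.40 ± 0.067 (SE, 2.64-fold) and fell in the non-polysomal fraction by 1.19 on the log2 scale, to 0.439 of its level at 0 h. The M-value was 2.59 ± 0.095 (SE, 6.03-fold, limma adjusted p = 8.3e-07), and it was 2.67, 2.58 and 2.53 within the 3 replicate numbers. The other probe of Impdh2 gave an M-value of 2.65. Impdh2 and Ahcy stand in the study's own list of up-regulated mRNAs, which was chosen on these arrays, so their size is a description and no independent evidence. The study followed up Impdh2 by q-PCR and reports a rise there too. The p-value of that rise lay above the limit which the study marks in its Western blots. Those blots found no significant change of IMPDH2 protein between the times of harvest.

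Ahcy hydrolyses S-adenosylhomocysteine, the product that inhibits methyltransferases, and had the next highest M-value. Its log2 signals were 12.03, 12.00 and 11.90 in np0, 12.47, 12.78 and 12.67 in p0, 10.30, 10.43 and 10.45 in np6 and 13.22, 13.28 and 13.52 in p6. Again no group overlapped another, and np6 was the lowest. The non-polysomal signal fell by 1.58 on the log2 scale, 2.99-fold, the largest non-polysomal fall among the 33 enzymes after that of Tk1. The polysomal signal rose by 0.70 ± 0.11 (SE, adjusted p = 2.6e-04), a rise that became -0.20 after quantile normalization. The M-value was 2.29 ± 0.15 (SE, 4.87-fold, adjusted p = 5.7e-06). A dimmer probe that carries the RefSeq accession NM_016661 gave 1.91 ± 0.19 (adjusted p = 6.3e-05).

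Set against the other enzymes on the same arrays, Impdh2 lay 1.95 ± 0.11 (SD, n = 3 replicate numbers) above the median M-value of the other 31, with 1.90, 2.08 and 1.87 in the single numbers. Ahcy lay 1.64 ± 0.07 (SD, n = 3) above it, with 1.72, 1.58 and 1.64. These differences do not move with a constant per array, and they were the same on the scale of the 75th percentile. Among the other 31 enzymes, 12 were called higher, beside 12.1% of all probes and 17% of those well above background. Their median M-value was 0.66, as in the whole list. Over the 4 group means the enzymes most like Impdh2 were Ahcy (Pearson r 0.97), Tyms (0.95), Mthfd2 (0.95), Paics (0.948) and Psat1, Psph and Gmps (each 0.943), a description over 4 points that share the same arrays.

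**Figure D2:**
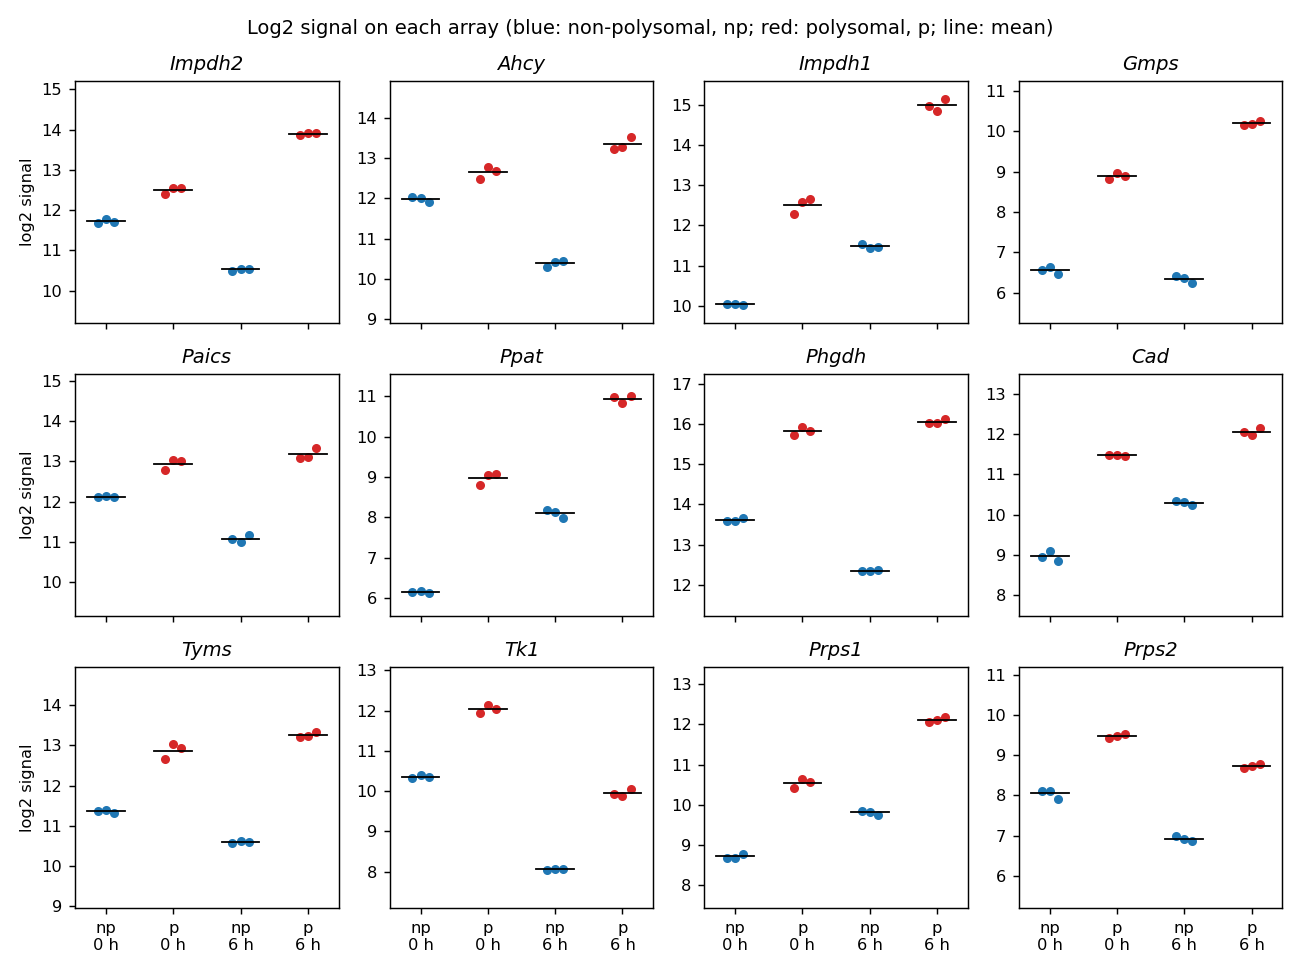
Log2 signal (vertical axis, one span of values in every panel) of 12 enzymes on each of the 12 arrays. Blue points are non-polysomal and red points polysomal arrays at 0 h and 6 h, and the black line is the mean of 3. In Impdh2, Ahcy, Paics, Phgdh and Tyms the np6 arrays lie below np0 and the p6 arrays above p0, in Impdh1, Ppat, Cad and Prps1 both fractions lie higher at 6 h, and in Tk1 and Prps2 both lie lower. On the scale of the 75th percentile the polysomal change of Paics, Phgdh and Tyms turns negative (-0.24, -0.24 and -0.09).

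All 3 enzymes of the guanine branch were called higher by M-value, beside 12.1% of all probes, but they reached it in different ways. With the 75th percentile or quantile normalization 2 of the 3 were called, Impdh2 and Gmps, and Impdh1 was not (0.62 and 0.41). Impdh1, the paralog that catalyses the same step as Impdh2, gave log2 signals of 10.06, 10.05 and 10.02 in np0, 12.28, 12.59 and 12.66 in p0, 11.53, 11.44 and 11.47 in np6 and 14.96, 14.84 and 15.15 in p6. Both fractions were thus higher at 6 h and no group overlapped another. Impdh1 rose 5.56-fold in the polysomal and 2.70-fold in the non-polysomal fraction, the largest polysomal rise of the 33 enzymes. Its M-value of 1.04 ± 0.16 (SE, adjusted p = 6.6e-04) lay just past the limit, and it was 0.93 without p0 replicate 1 and 0.96 without p6 replicate 3. The M-value of Impdh2 exceeded that of Impdh1 by 1.55 ± 0.14 (SD, n = 3), with 1.45, 1.71 and 1.49 in the replicate numbers. Gmps, which turns XMP into GMP, rose 2.47-fold in the polysomal fraction, and its non-polysomal change was -0.22 with an adjusted p of 0.048, which reached 0.17 without np6 replicate 3. Its M-value was 1.53 ± 0.11 (SE, adjusted p = 9.6e-06).

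Of the 8 enzymes that build IMP, 1 was called higher by M-value and 0 lower, close to the 12.1% and 1.32% of all probes, with a median of 0.18. Paics, which carries out a pair of middle steps of the chain, was the one called, at 1.29 ± 0.14 (SE, adjusted p = 8.6e-05), and with 0.86 it was not called on the scale of the 75th percentile. Its log2 signals were 12.11, 12.14 and 12.11 in np0, 12.78, 13.02 and 13.00 in p0, 11.06, 11.00 and 11.17 in np6 and 13.07, 13.11 and 13.34 in p6. The np6 arrays were the lowest, and p6 lay just above p0. The non-polysomal signal fell 2.06-fold, while the polysomal difference of 0.24 had an adjusted p of 0.051 and was -0.24 on the scale of the 75th percentile. Ppat, the amidotransferase of the committed step, whose transcript starts beside that of Paics, gave 6.14, 6.16 and 6.11 in np0, 8.79, 9.06 and 9.07 in p0, 8.19, 8.13 and 7.99 in np6 and 10.98, 10.84 and 11.01 in p6. Ppat rose in both fractions, 3.92-fold in the polysomal and 3.90-fold in the non-polysomal, and its M-value was 0.01 ± 0.14 (SE, adjusted p = 0.97). Its dimmer probe gave an M-value of 0.65 (adjusted p = 0.0036), with a smaller non-polysomal rise of 0.82.

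Gart, a trifunctional enzyme of the same chain, rose 2.62-fold in the polysomal and 2.43-fold in the non-polysomal fraction. Atic, which closes the ring, rose 1.70-fold and 1.42-fold. Pfas, which adds an amide nitrogen in the fourth step, had the lowest M-value of the chain, and its log2 signals were 6.02, 5.98 and 6.12 in np0, 7.64, 7.86 and 7.76 in p0, 6.80, 6.79 and 6.75 in np6 and 8.01, 7.96 and 8.32 in p6. The M-value of Pfas was -0.39 ± 0.15 (SE, adjusted p = 0.061). It was -0.82 on the scale of the 75th percentile (adjusted p = 4.3e-04) and after quantile normalization (adjusted p = 7.4e-04). The dimmer probe of Pfas gave 0.97 (adjusted p = 3e-04), so the direction is not settled by these probes. Adsl, which acts in this chain and again in the adenine branch, did not pass the test in either fraction (polysomal change -0.19, non-polysomal 0.01). On the scale of the 75th percentile its polysomal change was -0.68 (adjusted p = 2.7e-06) and its M-value -0.63 (adjusted p = 2.1e-04). After quantile normalization they were -0.82 (adjusted p = 3.4e-07) and -0.77 (adjusted p = 3.3e-05). Of the paralogs that make the activated ribose, 1 rose and 1 fell. Prps1 rose 2.99-fold in the polysomal and 2.14-fold in the non-polysomal fraction, and Prps2 fell 1.68-fold and 2.19-fold. Their M-values were 0.48 ± 0.11 and 0.38 ± 0.11 (SE), with -0.09 for Prps1 after quantile normalization and -0.04 for Prps2 on the scale of the 75th percentile.

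In pyrimidine synthesis 1 of 5 enzymes was called higher by M-value and 0 lower, beside 12.1% and 1.32% of all probes, whereas on the scale of the 75th percentile 0 were called higher (Ctps 0.84) and 1 lower (Cad). Ctps, a CTP synthase, had 1.26 ± 0.13 (SE, adjusted p = 6.1e-05), and its log2 signals were 10.84, 10.94 and 10.90 in np0, 12.47, 12.75 and 12.63 in p0, 11.65, 11.57 and 11.60 in np6 and 14.60, 14.48 and 14.70 in p6. It rose 3.93-fold in the polysomal and 1.64-fold in the non-polysomal fraction, and no group overlapped another. Its paralog Ctps2 fell 1.82-fold in the non-polysomal fraction, and its polysomal change of -0.20 had an adjusted p of 0.046, which was 0.14 without p0 replicate 2. Cad, the trifunctional enzyme of the first steps, had the lowest M-value of the 33 enzymes, with log2 signals of 8.96, 9.11 and 8.85 in np0, 11.47, 11.49 and 11.45 in p0, 10.33, 10.31 and 10.23 in np6 and 12.04, 11.98 and 12.14 in p6. It rose in both fractions and more in the non-polysomal one, 2.49-fold against 1.50-fold, although its polysomal change was -0.16 after quantile normalization. The M-value was -0.73 ± 0.11 (SE, adjusted p = 8.3e-04), and -0.87 and -0.92 at the next brightest probes, while the dimmest gave 0.62 (adjusted p = 0.04). Cad was called lower on the scale of the 75th percentile (-1.15, adjusted p = 1.4e-05) and after quantile normalization (-1.38, adjusted p = 4.9e-06). Dhodh, the mitochondrial dehydrogenase of the chain, rose 2.60-fold in the polysomal and 1.64-fold in the non-polysomal fraction. Umps, which makes UMP, rose 1.84-fold and 1.56-fold.

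**Figure D3:**
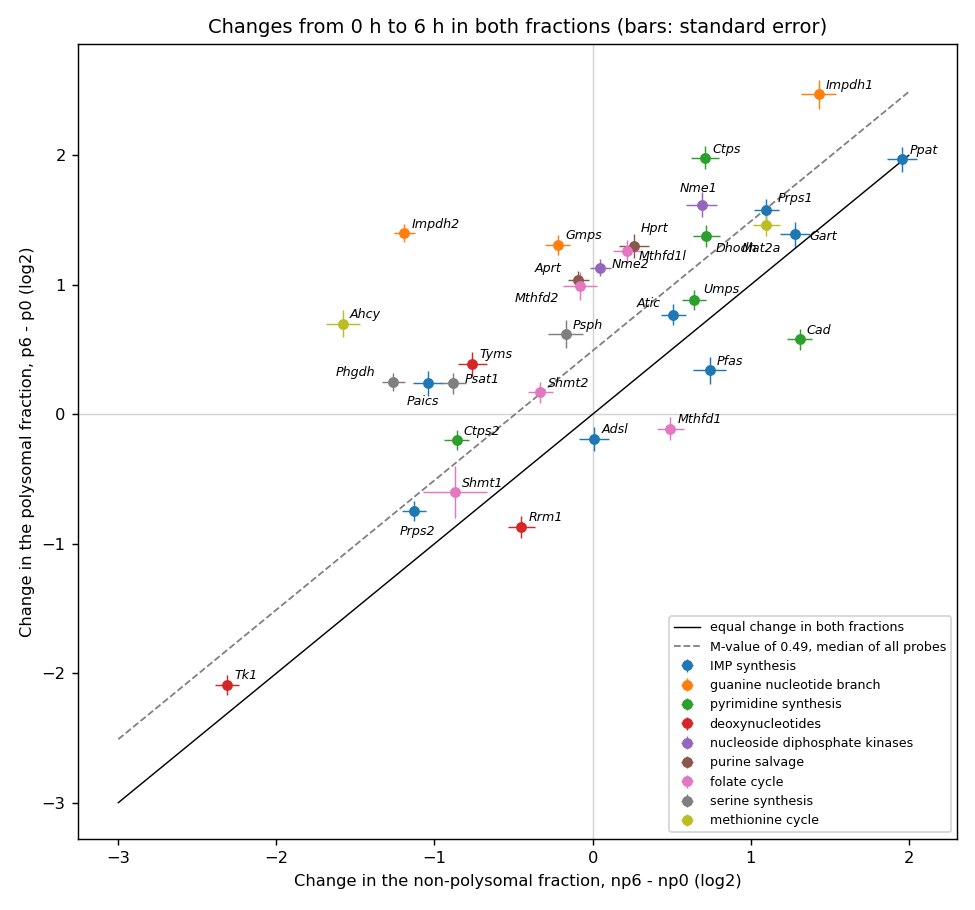
Change from 0 h to 6 h in the non-polysomal fraction (horizontal axis, log2) against that in the polysomal fraction (vertical axis, log2) for 33 enzymes coloured by role, with standard errors from the fit. The solid line marks equal changes and the dashed line the median M-value of all probes (0.49). Impdh2 (-1.19 and 1.40) and Ahcy (-1.58 and 0.70) lie farthest above the lines, Cad and Mthfd1 farthest below, and Tk1 and Ppat close to the solid line at opposite ends. On the scale of the 75th percentile the polysomal changes of Paics, Pfas, Phgdh, Psat1, Shmt2 and Tyms turn negative.

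The deoxynucleotide enzymes did not move together. Tk1, the thymidine kinase of dividing cells, fell 4.25-fold in the polysomal and 4.95-fold in the non-polysomal fraction, the largest fall of the 33 enzymes in either, and it was the only enzyme of the 33 called lower in the polysomal fraction. Its log2 signals were 10.33, 10.41 and 10.35 in np0, 11.94, 12.14 and 12.03 in p0, 8.04, 8.07 and 8.06 in np6 and 9.92, 9.88 and 10.06 in p6. No group overlapped another, and the M-value was 0.22 ± 0.11 (SE, adjusted p = 0.13). Rrm1, the large subunit of ribonucleotide reductase, fell 1.83-fold and 1.37-fold, and its log2 signals were 10.31, 10.44 and 10.34 in np0, 12.92, 13.21 and 13.08 in p0, 9.92, 9.93 and 9.88 in np6 and 12.14, 12.17 and 12.30 in p6. Its M-value was -0.42 ± 0.12 (SE, adjusted p = 0.026), which rose to 0.061 without p6 replicate 1. It was -0.84 (adjusted p = 1.9e-05) on the scale of the 75th percentile and -1.21 (adjusted p = 1.6e-06), called lower, after quantile normalization. Tyms, thymidylate synthase, differed from both, with log2 signals of 11.36, 11.40 and 11.33 in np0, 12.65, 13.02 and 12.93 in p0, 10.57, 10.63 and 10.60 in np6 and 13.21, 13.23 and 13.33 in p6. The np6 arrays lay below np0 and the p6 arrays above p0. Tyms fell 1.69-fold in the non-polysomal fraction and rose by 0.39 in the polysomal one (adjusted p = 0.005), where the change was -0.09 on the scale of the 75th percentile, and its M-value was 1.15 ± 0.13 (SE, adjusted p = 1.4e-04).

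The nucleoside diphosphate kinases, which turn diphosphates into triphosphates, and the purine salvage enzymes rose in the polysomal fraction. Nme2 gave log2 signals of 16.47, 16.52 and 16.46 in np0, 16.88, 17.05 and 16.94 in p0, 16.57, 16.51 and 16.51 in np6 and 18.06, 18.11 and 18.11 in p6. The np0 and np6 arrays overlapped and p6 was the highest, with a polysomal rise of 2.20-fold that was 0.08 on the log2 scale (adjusted p = 0.12) after quantile normalization, and the M-value was 1.09 ± 0.093 (SE, adjusted p = 2.5e-05). Nme1 gave 11.89, 11.90 and 11.83 in np0, 12.38, 12.50 and 12.59 in p0, 12.60, 12.51 and 12.58 in np6 and 13.90, 14.21 and 14.22 in p6. Its p0 and np6 arrays overlapped. It rose 3.08-fold in the polysomal and 1.61-fold in the non-polysomal fraction, and its M-value of 0.93 ± 0.14 (SE) was 1.04 without p6 replicate 1. Nme1 and Nme2 are close paralogs, and cross-hybridisation of their probes was not tested.

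Aprt, which salvages adenine, had log2 signals of 14.08, 14.22 and 14.09 in np0, 14.17, 14.22 and 14.12 in p0, 14.08, 13.99 and 14.05 in np6 and 15.16, 15.22 and 15.25 in p6. Here np0, p0 and np6 lay together and p6 alone was higher. Aprt was the only enzyme with no difference between the fractions past the test at 0 h (0.04, adjusted p = 0.76), and it rose 2.06-fold in the polysomal fraction, a change of -0.05 after quantile normalization. Hprt, which salvages hypoxanthine and guanine, gave 11.77, 11.75 and 11.60 in np0, 13.29, 13.59 and 13.52 in p0, 12.01, 11.98 and 11.92 in np6 and 14.81, 14.66 and 14.83 in p6. It rose 2.46-fold in the polysomal fraction, and its non-polysomal change of 0.26 stood at an adjusted p of 0.05. The M-values of Aprt and Hprt were 1.13 ± 0.096 (SE, adjusted p = 2.4e-05) and 1.03 ± 0.13 (SE, adjusted p = 2.7e-04), and that of Hprt was 0.95 without p0 replicate 1.

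In the folate cycle 2 of 5 enzymes were called higher by M-value, beside 12.1% of all probes, the mitochondrial Mthfd2 and Mthfd1l, and the cytosolic Mthfd1 had a negative M-value. Mthfd2 and Mthfd1l were not called on the scale of the 75th percentile (0.65 and 0.62). Mthfd2, a dehydrogenase and cyclohydrolase, gave 9.51, 9.42 and 9.67 in np0, 10.23, 10.46 and 10.53 in p0, 9.47, 9.42 and 9.47 in np6 and 11.33, 11.30 and 11.57 in p6. The np0 and np6 arrays overlapped and p6 lay above p0, with a polysomal rise of 1.99-fold and a non-polysomal change of -0.08 (adjusted p = 0.68). Mthfd1, the trifunctional cytosolic enzyme, gave 7.64, 7.62 and 7.58 in np0, 10.56, 10.77 and 10.73 in p0, 8.17, 8.04 and 8.10 in np6 and 10.57, 10.46 and 10.70 in p6. Its p0 and p6 arrays overlapped, with a change of -0.11 (adjusted p = 0.27), while np6 lay above np0 by 0.49 (adjusted p = 8.8e-04). On the spike-in scale Mthfd1 was the only enzyme of the 33 that rose in the non-polysomal fraction alone. Its polysomal change was a fall on the scale of the 75th percentile (-0.60, adjusted p = 3.1e-06) and after quantile normalization (-0.73, adjusted p = 2.3e-07). Both its probes gave a negative M-value (-0.60 and -0.64). By M-value Mthfd1 was called lower on the scale of the 75th percentile (-1.03, adjusted p = 5.7e-06) and after quantile normalization (-1.18, adjusted p = 1.1e-06). The M-value of Mthfd2 was 1.07 ± 0.15 (SE, adjusted p = 4.8e-04), which was 0.98 without p0 replicate 1, and that of the formate-making Mthfd1l was 1.04 ± 0.12 (SE), 0.96 without the same array.

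The hydroxymethyltransferases, which split serine into glycine and a one-carbon unit, were not called. Shmt2, the mitochondrial form, fell 1.26-fold in the non-polysomal fraction, and its polysomal change was 0.17 (adjusted p = 0.092). Shmt1, the cytosolic form and the dimmest main probe of the list, fell by 0.87 in the non-polysomal fraction on the log2 scale, with its np6 arrays spread from 3.72 to 4.59. Its M-value of 0.26 ± 0.28 (SE) had an adjusted p of 0.48.

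The 3 enzymes of serine synthesis had M-values between 0.79 and 1.51, and 2 of them were called, beside 12.1% of all probes and 17% of those well above background. On the scale of the 75th percentile Phgdh was called (1.09), and Psat1 (0.70) and Psph (0.37) were not. Phgdh, the dehydrogenase of the first step, gave 13.58, 13.60 and 13.66 in np0, 15.71, 15.91 and 15.81 in p0, 12.35, 12.35 and 12.36 in np6 and 16.03, 16.01 and 16.13 in p6. The np6 arrays lay 2.40-fold below np0, and the p6 arrays lay just above p0 with a change of 0.25 (adjusted p = 0.013) that became -0.24 on the scale of the 75th percentile. All 3 probes of Phgdh were called higher by M-value (1.51, 1.36 and 1.08), and the polysomal change of the dimmest was -0.08. Psat1, the aminotransferase of the next step, fell 1.84-fold in the non-polysomal fraction, with an M-value of 1.12 ± 0.11 (SE, adjusted p = 6.6e-05). Its polysomal change of 0.24 (adjusted p = 0.024) turned to -0.24 (adjusted p = 0.0017) on the scale of the 75th percentile and to -0.74 after quantile normalization, and had an adjusted p of 0.083 without p6 replicate 3. Psph, the phosphatase of the last step, gave 11.14, 11.09 and 11.00 in np0, 12.21, 12.54 and 12.39 in p0, 10.96, 10.87 and 10.89 in np6 and 13.00, 12.82 and 13.17 in p6. It rose 1.53-fold in the polysomal fraction, its non-polysomal change was -0.17 (adjusted p = 0.28), and its M-value was 0.79 ± 0.16 (SE).

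Mat2a makes S-adenosylmethionine, the methyl donor whose product Ahcy clears, and its log2 signals were 12.47, 12.57 and 12.44 in np0, 13.64, 13.93 and 13.81 in p0, 13.64, 13.61 and 13.53 in np6 and 15.32, 15.19 and 15.25 in p6. Both fractions were higher at 6 h, and the lowest p0 and the highest np6 array met. Mat2a rose 2.75-fold in the polysomal and 2.14-fold in the non-polysomal fraction, unlike Ahcy, whose non-polysomal signal fell. Its M-value of 0.36 ± 0.12 (SE, adjusted p = 0.044) had an adjusted p of 0.098 without np0 replicate 2.

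Counted by what each fraction did, 13 enzymes rose in both fractions, 5 fell in both and 6 rose in the polysomal and fell in the non-polysomal fraction. The 13 were Atic, Cad, Ctps, Dhodh, Gart, Hprt, Impdh1, Mat2a, Nme1, Pfas, Ppat, Prps1 and Umps, and the same was true of 18.6% of all probes and 30% of those well above background. The 5 were Ctps2, Prps2, Rrm1, Shmt1 and Tk1, beside 9.21% and 15%. The 6 with opposite changes were Ahcy, Gmps, Impdh2, Phgdh, Psat1 and Tyms, beside 4.64% of all probes and 7.41% of those well above background. Other probes of Gmps and Phgdh did not show this pattern. The second Gmps probe had a non-polysomal change of -0.18 (adjusted p = 0.1). The dimmer Phgdh probes had polysomal changes of 0.11 and -0.08 (adjusted p = 0.26 and 0.37). The second probes of Ahcy, Impdh2 and Tyms did show it. So did the second probes of Paics, Pfas and Psph, whose main probes did not, with polysomal changes of 0.32, 0.62 and 0.74. Their non-polysomal changes were -1.05, -0.35 and -0.26 (adjusted p = 2.7e-06, 0.01 and 0.025). Of the remaining 9, Aprt, Mthfd1l, Mthfd2, Nme2 and Psph rose in the polysomal fraction alone, beside 27.4% of all probes and 19.3% of those well above background. Paics and Shmt2 fell in the non-polysomal fraction alone (5.8% and 8.5%), Mthfd1 rose there alone (1.75% and 2.22%), and Adsl passed neither test (30.1% and 14%). With the 75th percentile 3 enzymes rose in the polysomal and fell in the non-polysomal fraction, and after quantile normalization 2 did. Without replicate 1, 2 or 3 of all groups 3, 4 and 2 did. Mthfd1 had the reverse on the scale of the 75th percentile (polysomal -0.60, non-polysomal 0.43) and after quantile normalization (-0.73 and 0.46). The non-polysomal falls of Impdh2, Ahcy, Phgdh and Paics kept an adjusted p of at most 0.04 in all 26 alternatives. That of Gmps had an adjusted p below 0.05 in 9 of the 26.

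By the rule for calls, 14 enzymes were higher in the polysomal fraction at 6 h and 1 was lower, beside 19.2% and 5% of all probes and 27.1% and 7.76% of those well above background. In the non-polysomal fraction 6 were higher and 6 lower, beside 8.12% and 8.11% of all probes and 12.5% and 12.2% of those well above background. Cad, Gart, Impdh1, Mat2a, Ppat and Prps1 were the 6 higher ones, and Ahcy, Impdh2, Paics, Phgdh, Prps2 and Tk1 the 6 lower ones. The median change of the 33 enzymes was 0.77 in the polysomal and 0.01 in the non-polysomal fraction, against 0.54 and 0.04 for all probes.

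On the spike-in scale the polysomal minus non-polysomal difference of the main probe was above 0 for all 33 enzymes at both times. It was past the test for all but Aprt at 0 h. The dimmer Pfas probe had -0.67 (adjusted p = 8.5e-05) at 0 h and the dimmest Cad probe -0.32 (adjusted p = 0.095). Both had 0.30 at 6 h and were not called. At 0 h the median difference was 1.76, and 26 of the 33 were called higher in the polysomal fraction, beside 27.3% of all probes and 43.3% of those well above background. The 7 that were not called were Ahcy (0.66), Aprt (0.04), Impdh2 (0.77), Mthfd2 (0.88), Nme1 (0.62), Nme2 (0.48) and Paics (0.81). At 6 h the median was 2.54 and all 33 were called, beside 37.3% of all probes and 55.3% of those well above background, with Gmps at 3.87, Phgdh at 3.70, Gart at 3.53 and Impdh1 at 3.51. Impdh2 went from 1.71-fold to 10.3-fold more signal in the polysomal fraction, and Ahcy from 1.58-fold to 7.72-fold. Medians of probes well above background were 0.76 at 0 h and 1.21 at 6 h. With all probes of a gene averaged, 25 of the 33 were called at 0 h and 32 at 6 h. On the scale of the 75th percentile 14 of the 33 were called at 0 h and 19 at 6 h, and 26 and 32 had a positive difference. The shares of all probes called at 0 h and 6 h on that scale were not computed.

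**Figure D4:**
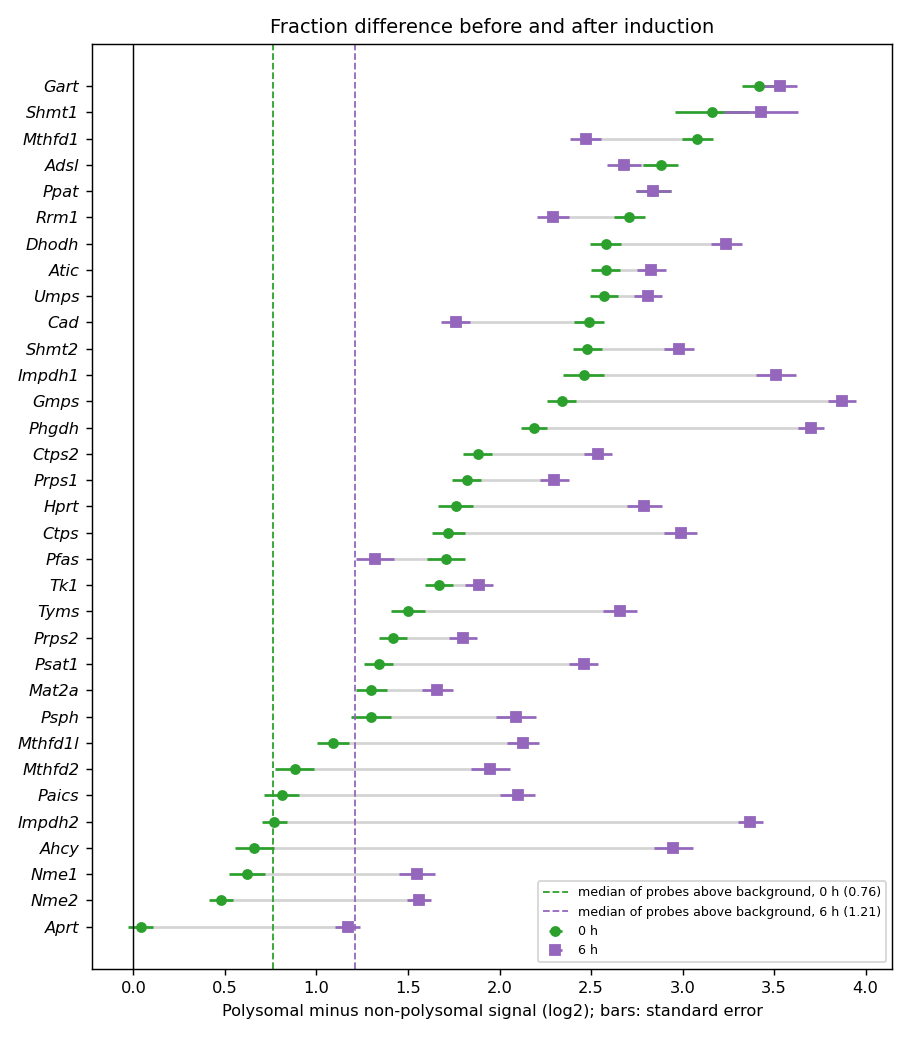
Polysomal minus non-polysomal log2 signal (horizontal axis) of 33 enzymes at 0 h (green circles) and 6 h (violet squares), ordered by the value at 0 h, with standard errors and dashed lines at the medians of probes well above background (0.76 and 1.21). Impdh2 and Ahcy lie near the bottom at 0 h (0.77 and 0.66) and cover the widest distance, to 3.37 and 2.95. Cad, Mthfd1, Rrm1, Pfas and Adsl lie lower at 6 h than at 0 h. On the scale of the 75th percentile the positive differences are 26 of 33 at 0 h and 32 of 33 at 6 h.

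Of 59 further genes of these pathways, 58 were matched by a probe, and 10 were called higher and 1 lower by M-value, with a median of 0.56, beside 12.1% and 1.32% of all probes and 17% and 1.9% of those well above background. Adssl1 and Adss, the adenylosuccinate synthetases that open the adenine branch beside the guanine branch, had M-values of 2.04 (adjusted p = 2e-06) and 1.34 (adjusted p = 2e-04). Dctd, which deaminates dCMP, had 1.36, Gmpr, which returns GMP to IMP, had 1.32, and Mthfd2l, a relative of Mthfd2, had 1.21. The second probes of Adss (0.90) and Dctd (0.77) were not called. The non-polysomal change of Adss was -0.44 at the main probe and 0.21 at the second. Adssl1 rose by 1.96 in the polysomal fraction, with a non-polysomal change of -0.08, whereas Gmpr fell in both fractions, by 0.41 and 1.73 on the log2 scale. Cmpk2, a nucleotide kinase of mitochondria, was the one called lower (adjusted p = 0.041), but its probe was not well above background in np0, np6 and p6, so no size is given.

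**Figure D5:**
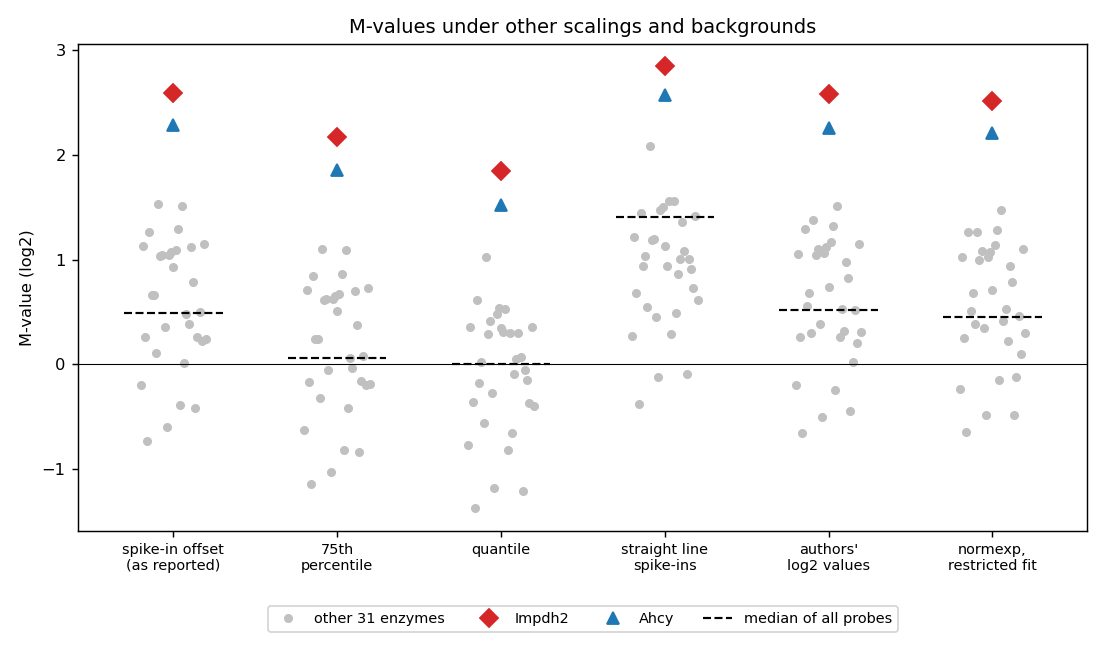
M-value (log2, vertical axis) of the 33 enzymes under 6 ways of scaling or background correction, each a column. Red diamonds are Impdh2, blue triangles Ahcy, grey points the other 31 enzymes, spread sideways only to be seen, and dashed lines the median of all probes. Impdh2 ranges from 1.85 (quantile) to 2.85 (line through spike-ins) and is the highest in each column, with Ahcy next, while those at or below 0 among the others change in number with the scale.

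Impdh2 and Ahcy were the highest and the next highest of the 33 M-values in each of these 6 settings. With normexp fitted on all spots, which failed on 3 arrays, Impdh2 had 2.41, Gmps 2.28 and Ahcy 2.09. The median of the 33 lay above that of all probes as reported (0.66 against 0.49) and below it when a line through the spike-ins replaced the constant (1.01 against 1.41). That alternative lets the correction depend on brightness, and 18 of the 33 enzymes were then called higher, beside 62.8% of all probes. The authors' own log2 values, which carry no background subtraction, gave 2.58 for Impdh2, 2.26 for Ahcy and 13 enzymes called higher, beside 8.3% of all probes.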

How the data were processed

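The authors hybridised 12 one-color arrays on 3 slides, each slide holding 1 replicate of each group, and Feature Extraction 10.7.1.1 gave the deposited intensity of each of 45018 spots, background-subtracted but not normalized between arrays. The authors' deposited log2 values are the log2 of the median pixel without background subtraction plus a constant per array. Outlier spots (138 to 299 per array, controls included) were left out, the log2 intensities of a probe's spots were averaged, and the mean of 10 spike-in transcripts was subtracted. A constant added to an array moves every difference alike. Groups were compared in R 4.3.3 with limma 3.58.1 (4 group means, 12 arrays, no filter) and the data.table package (1.17.8), with Benjamini-Hochberg adjustment over all probes, on steps tested on simulated data. Symbols came from a RefSeq table for 64.8% of the probes. The members, roles, other pathway genes and markers were chosen with earlier results of these data known. Every member is named, values on every array are given for Impdh2, Ahcy, Impdh1 and the highest and lowest M-value of each role, and Ppat and Tk1 were added after their values were seen. Among the other pathway genes the called ones with the 5 highest and 5 lowest M-values are named. The alternatives were other scalings, the authors' log2 values, normexp, a filter on dim probes, outlier spots kept, the mean of probes, a prior trend, a replicate block, and leaving out arrays or replicate numbers.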

Additional observations from a re-analysis of the deposited data

Results flagged for a closer look

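In all, 6 enzymes changed in opposite directions in the fractions, each change and its difference with a limma adjusted p below 0.05: they rose in the polysomal and fell in the non-polysomal fraction from 0 h to 6 h. The difference between both changes is the M-value, which was 2.59 for Impdh2, 2.29 for Ahcy, 1.53 for Gmps, 1.51 for Phgdh, 1.15 for Tyms and 1.12 for Psat1. The non-polysomal change of Gmps (-0.22, adjusted p = 0.048) was the weakest of these, with an adjusted p of 0.17 without np6 replicate 3 and 0.15 without np0 replicate 2. At the second probe of Gmps this change was -0.18 (adjusted p = 0.1). The dimmer probes of Phgdh had polysomal changes of 0.11 and -0.08 (adjusted p = 0.26 and 0.37). Second probes of Paics, Pfas and Psph also changed in opposite directions, unlike the main probes that stand for these genes. The polysomal change of Psat1 (0.24) had an adjusted p of 0.071 without p0 replicate 1. Opposite changes of this direction were found for 4.64% of all probes and 7.41% of those well above background. On the scale of the 75th percentile the polysomal change turned negative for Phgdh (-0.24), Psat1 (-0.24) and Tyms (-0.09), leaving 3 of the 6 (Ahcy, Gmps and Impdh2), and after quantile normalization that of Ahcy (-0.20) did too, leaving 2.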

How the results depend on the processing

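The M-values of Impdh2 (1.85 to 2.85) and Ahcy (1.52 to 2.57) kept an adjusted p below 0.05 in all 26 alternatives. The counts moved with the scale. Shares of all probes called within a fraction were not computed for the alternatives, so the counts of enzymes called in a fraction have no like measure. With the 75th percentile, 4 enzymes were called higher and 2 lower by M-value, and 5 higher and 4 lower in the polysomal fraction. The signs that turned there were, by M-value, Atic -0.17, Gart -0.32, Mat2a -0.06, Ppat -0.42, Prps2 -0.04, Shmt1 -0.16, Tk1 -0.20 and Umps -0.19, in the polysomal fraction Paics -0.24, Pfas -0.14, Phgdh -0.24, Psat1 -0.24, Shmt2 -0.31 and Tyms -0.09, and in the non-polysomal fraction Adsl -0.05 and Nme2 -0.02. With quantile normalization, 3 were called higher and 3 lower by M-value, 3 higher and 5 lower in the polysomal fraction, and Ahcy lay 1.53 above the other enzymes. The signs turned by M-value for Atic -0.36, Ctps2 -0.18, Gart -0.56, Mat2a -0.28, Ppat -0.66, Prps1 -0.09, Shmt1 -0.06, Shmt2 -0.15, Tk1 -0.37 and Umps -0.40. They turned in the polysomal fraction for Ahcy -0.20, Aprt -0.05, Cad -0.16, Paics -0.68, Pfas -0.01, Phgdh -1.14, Psat1 -0.74, Psph -0.25, Shmt2 -0.56 and Tyms -0.54, and in the non-polysomal fraction for Adsl -0.05 and Nme2 -0.23.

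With a line through the spike-ins the M-values of Adsl 0.27 and Pfas 0.29, the polysomal changes of Adsl 0.18 and Mthfd1 0.26 and the non-polysomal change of Adsl -0.10 turned, and with the authors' log2 values the non-polysomal change of Nme2 -0.03. With normexp, run on the median pixels because the files used here hold no mean signal, the fit failed on 3 arrays. It called 2 enzymes higher by M-value, 8 in the polysomal and 2 in the non-polysomal fraction, and put Impdh2 1.54 and Ahcy 1.21 above the other enzymes and Impdh2 1.31 above Impdh1. Signs turned by M-value for Adsl 0.47, Mthfd1 0.31 and Pfas 1.56, in the polysomal fraction for Mthfd1 0.09, Prps2 0.04 and Shmt1 0.55, and in the non-polysomal fraction for Adsl -0.50, Aprt 0.03, Atic -0.01, Mthfd1 -0.23, Mthfd1l -0.14 and Pfas -0.45. With normexp run on the spots of uniform background, an alternative chosen after seeing the data, no fit failed, and Shmt1 -0.12 (M-value) and Nme2 -0.01 (non-polysomal) turned. With all probes of a gene averaged, the M-value of Pfas 0.29 turned and Ahcy lay 1.44 above the other enzymes. The spike-in offset subtracted from each array was -0.35, -0.48 and -0.21 on the log2 scale in p6 and 0.05 to 0.18 on the other arrays. It thus shifted p6 up and the other groups down, and the scalings by percentile and quantile do not use it. The cause of these moves was not tested. Over all probes, 4964 were called higher and 543 lower as reported, 1545 and 1431 with the 75th percentile, 1268 and 1573 with quantile normalization, 25871 and 61 with the line, 3402 and 129 with the authors' values, 100 and 0 with normexp and 2516 and 75 with its restricted run. The median M-value of all probes was then 0.06, 0.00, 1.41, 0.52, 3.20 and 0.45 in that order, against 0.49. The filter on dim probes, outlier spots kept and the prior trend turned no sign.

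Leaving out arrays or replicate numbers gave 10 to 15 enzymes called higher by M-value (10 without p0 replicate 1), 13 to 15 in the polysomal fraction, and signs turned for the M-values of Gart (-0.01 to 0.18), Ppat (-0.08 to 0.10) and Shmt1 (-0.08 to 0.47) and the non-polysomal change of Adsl (-0.03 to 0.07). Single arrays could not be left out of the differences between enzymes, which need all 4 groups of a number. A replicate number is also a slide. Over all probes, dim ones included, same-numbered arrays deviated together little (r of -0.05 to 0.15, over 0.1 in 1 of 18 pairs). With 3 arrays per group this does not settle whether the numbers pair the samples. With the replicate block, 14 enzymes were called higher by M-value, and 5 changes moved across the threshold: Mat2a (M-value, adjusted p = 0.068), Ctps2 (polysomal, 0.066), Gmps (non-polysomal, 0.071) and Hprt (non-polysomal, 0.09) lost it and Paics (polysomal, 0.043) gained it. Every member probe was well above background, so that the 3 arrays per group limit the precision.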

Other observations

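Among the other pathway genes, several large changes in the fractions came without a call by M-value (M-values from -0.01 to 0.96), and these genes were named after their values were seen. Ak4, an adenylate kinase of mitochondria, rose by 5.16 ± 0.21 (SE, limma adjusted p = 1.8e-08) in the polysomal and by 4.20 in the non-polysomal fraction on the log2 scale. Slc25a32, which carries folate into mitochondria, rose by 2.93 and 2.12, and Slc19a1, which brings reduced folate into the cell, by 1.96 and 1.70. Samhd1, which breaks down deoxynucleoside triphosphates, rose by 2.33 and 1.79, Uck2, which salvages uridine and cytidine, by 2.32 and 1.46, and Xdh, which oxidises hypoxanthine, by 1.79 and 1.78. Gldc, the decarboxylase of the glycine cleavage system, fell by 1.49 in both fractions on the log2 scale. The adjusted p of each of these changes was at most 6.5e-06 by limma.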
